A study of Mus musculus with 8 samples.

Results

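The receptors and ligands of the VEGF and Tie signaling systems were followed through the endothelium of the embryonic aorta and into the first blood cells that leave it. The 10 genes were chosen by name from the 28014 genes of the deposited count table, by a rule that reads no measured value, and all 10 were found there. They comprised 6 receptors (Kdr, Flt1, Flt4, Nrp1, Tek and Tie1) and 4 ligands (Vegfa, Vegfb, Vegfc and Angpt2). RNA was counted by CITE-seq in 15168 single CD31+ cells that were FACS-isolated from the aorta-gonad-mesonephros region (AGM) of mouse embryos at E10.5, where blood stem cells first bud from arterial endothelium. In CITE-seq each RNA molecule carries a unique molecular identifier (UMI), and antibody tags report surface proteins, which were not analysed here. Each of the 8 libraries was a pool of 2 to 5 embryos of the same genotype, so that a library and not a cell is the replicate here.

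The 5 WT libraries (WT 1 to 5, 8423 cells) carry the strain label C57BL/6, and the study's text uses WT for littermates without Cre. In the 3 Meis1-flox/VE-Cre libraries (6745 cells), labelled as Meis1 knockouts, an exon of the homeobox gene Meis1 is floxed and Cre is driven by the VE-cadherin promoter. The Cre line carries a mixed strain name in the paper, and whether strain background differs between the genotypes was not examined here. The VE-cadherin promoter is active in endothelium, so deletion is directed to the endothelial cells and to the blood cells that descend from them, and its extent in these libraries was not measured here. The RNA tags lie at the 3′ end of each transcript, outside the floxed exon, so Meis1 counts do not check the deletion (in EHT, 68.0 to 85.8 CPM in WT and 55.5 to 70.9 CPM in Meis1-flox/VE-Cre, as UMIs per 1000000 UMIs of a sum). No treatment was given. The authors had placed every cell in 1 of 10 clusters, and the account follows aEC (arterial endothelium), pre-HE (cells between arterial and hemogenic endothelium), EHT (cells in endothelial-to-hematopoietic transition) and the 4 clusters vEC_1 to vEC_4, which were summed as vEC. EMP, Megakaryocytes and Myeloid are the 3 blood clusters.

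VEGFA is the main growth signal of blood vessels. It acts through KDR (VEGFR2), whereas FLT1 (VEGFR1) binds it tightly, signals weakly and limits how much reaches KDR. VEGFB binds FLT1, and VEGFC binds FLT4 (VEGFR3) and, once processed, KDR. NRP1 is a co-receptor of VEGFA and also a receptor of class 3 semaphorins. TEK (Tie2) is the receptor of the angiopoietins, of which ANGPT1 activates it and ANGPT2 is mostly a context-dependent antagonist, and TIE1 is an orphan partner of TEK. Kdr is needed for the first endothelial and blood cells of the embryo, and arterial endothelium is specified under VEGFA.

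The promoters of 3 genes are shown first, because Tek and Tie1, the pair of Tie receptors, both rose from aEC to pre-HE in WT, a step in which Kdr was not called. The windows run from 250 bases before to 50 bases after 1 annotated start of each gene, 5′ to 3′ on the gene's own strand, as given by RefSeq for GRCm38.p6, the assembly that mm10 names. A window was found for 9 of the 10 genes. Capitals mark GGAA, the core letters read by ETS factors, on either strand (TTCC is the same letters on the other strand). The Tek window lies at chr4:94739039-94739338 on the plus strand, that of Tie1 at chr4:118489800-118490099 on the minus strand and that of Kdr at chr5:75978406-75978705 on the minus strand.
Tek: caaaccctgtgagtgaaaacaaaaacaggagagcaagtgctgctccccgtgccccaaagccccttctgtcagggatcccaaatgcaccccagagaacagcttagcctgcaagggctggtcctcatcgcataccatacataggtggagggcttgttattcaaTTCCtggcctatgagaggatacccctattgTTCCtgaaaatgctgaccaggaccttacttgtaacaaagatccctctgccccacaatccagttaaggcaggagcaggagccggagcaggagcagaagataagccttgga
Tie1: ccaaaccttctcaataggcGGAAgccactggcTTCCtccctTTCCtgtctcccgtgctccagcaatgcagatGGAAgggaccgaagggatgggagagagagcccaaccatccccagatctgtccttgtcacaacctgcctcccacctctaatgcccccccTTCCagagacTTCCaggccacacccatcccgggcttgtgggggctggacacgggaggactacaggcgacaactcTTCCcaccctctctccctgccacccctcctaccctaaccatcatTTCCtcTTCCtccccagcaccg
Kdr: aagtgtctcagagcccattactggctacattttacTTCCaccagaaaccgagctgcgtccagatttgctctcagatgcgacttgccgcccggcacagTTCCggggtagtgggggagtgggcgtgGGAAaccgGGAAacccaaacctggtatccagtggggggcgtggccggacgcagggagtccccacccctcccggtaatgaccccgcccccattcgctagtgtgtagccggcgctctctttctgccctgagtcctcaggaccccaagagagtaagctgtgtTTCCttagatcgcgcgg
GGAA stood 9 times in the Tie1 window, and 1.63% of the 27025 promoter windows held as many. It stood 5 times in the Kdr window (28.7% of windows held as many) and 2 times in the Tek window (84.7% held as many). At least 1 match was found in 95.9% of all windows, so that its presence in all 9 windows is close to the rate over all genes. TGACAG, the letters read by MEIS factors, stood in the Tek window, on the reverse strand 185 bases before the start, and in no window of the other 8 genes. It was found in 19.3% of all windows. GATAAG, read by GATA factors, was likewise found in the Tek window only, 38 bases after the start, against 7.43% of all windows. In the Tek window no motif overlapped another. A match in these letters is not a measured binding site.

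Values are UMIs summed over the cells of a cluster in each library and expressed per 1000000 UMIs of that sum (CPM). UMIs from 3′ ends count molecules, so a level was not divided by transcript length. The libraries held between 20484881 and 79429129 UMIs. A cell held a median of 26572 to 28553 UMIs in WT 1 to 4 but 12721 in WT 5 and 9612 to 14895 in the Meis1-flox/VE-Cre libraries, and depth therefore cannot be told apart from genotype except through WT 5. The names of the WT 5 cells begin with other letters (Mf) than those of the other WT libraries, and what these mark is not given in the sources used here. The pre-HE sums were small, with 154254 to 1264693 UMIs from 11 to 87 cells in WT and 113105 to 208942 UMIs from 15 to 33 cells in Meis1-flox/VE-Cre. In sums, fewer cells with an mRNA and less of it per cell cannot be told apart, and the shares of cells given further on bear on this. Of all barcodes, 33 occurred in more than 1 library.

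The cluster names were checked against markers. Gja5, Dll4, Efnb2, Notch1, Nr2f2 and Ephb4 among them were also in the arterial and venous scores by which the authors classified endothelial clusters. The summed level of 4 endothelial markers (Cdh5, Pecam1, Eng, Emcn) was 1460 CPM in aEC, 1411 CPM in vEC, 2667 CPM in pre-HE and 337 CPM in EHT of WT. The 5 arterial markers (Gja5, Dll4, Efnb2, Notch1, Hey2) summed to 176 CPM in aEC, 98.1 CPM in vEC and 1234 CPM in pre-HE, so pre-HE and not aEC was the most arterial cluster by this list. The 3 venous markers (Nr2f2, Ephb4, Aplnr) were detected in aEC too, at 269 CPM against 451 CPM in vEC and 72.5 CPM in pre-HE. The aEC cluster therefore carried venous as well as arterial markers, and the label is kept here as the authors' name. Runx1, Gfi1 and Spi1 summed to 456 CPM in EHT and 9.01 CPM in pre-HE.

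Along aEC, pre-HE and EHT the receptors took 3 different courses in WT (plot of levels by library). Nrp1, Tek and Tie1 rose from aEC to pre-HE, Kdr stood at about the same level in both, and Flt4 was lower in pre-HE. All 6 fell from pre-HE to EHT. Of the ligands, Vegfa and Vegfc were low in aEC, rose many-fold in pre-HE and fell in EHT, whereas Vegfb was highest in EHT and Angpt2 in aEC.

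**Figure D1:**
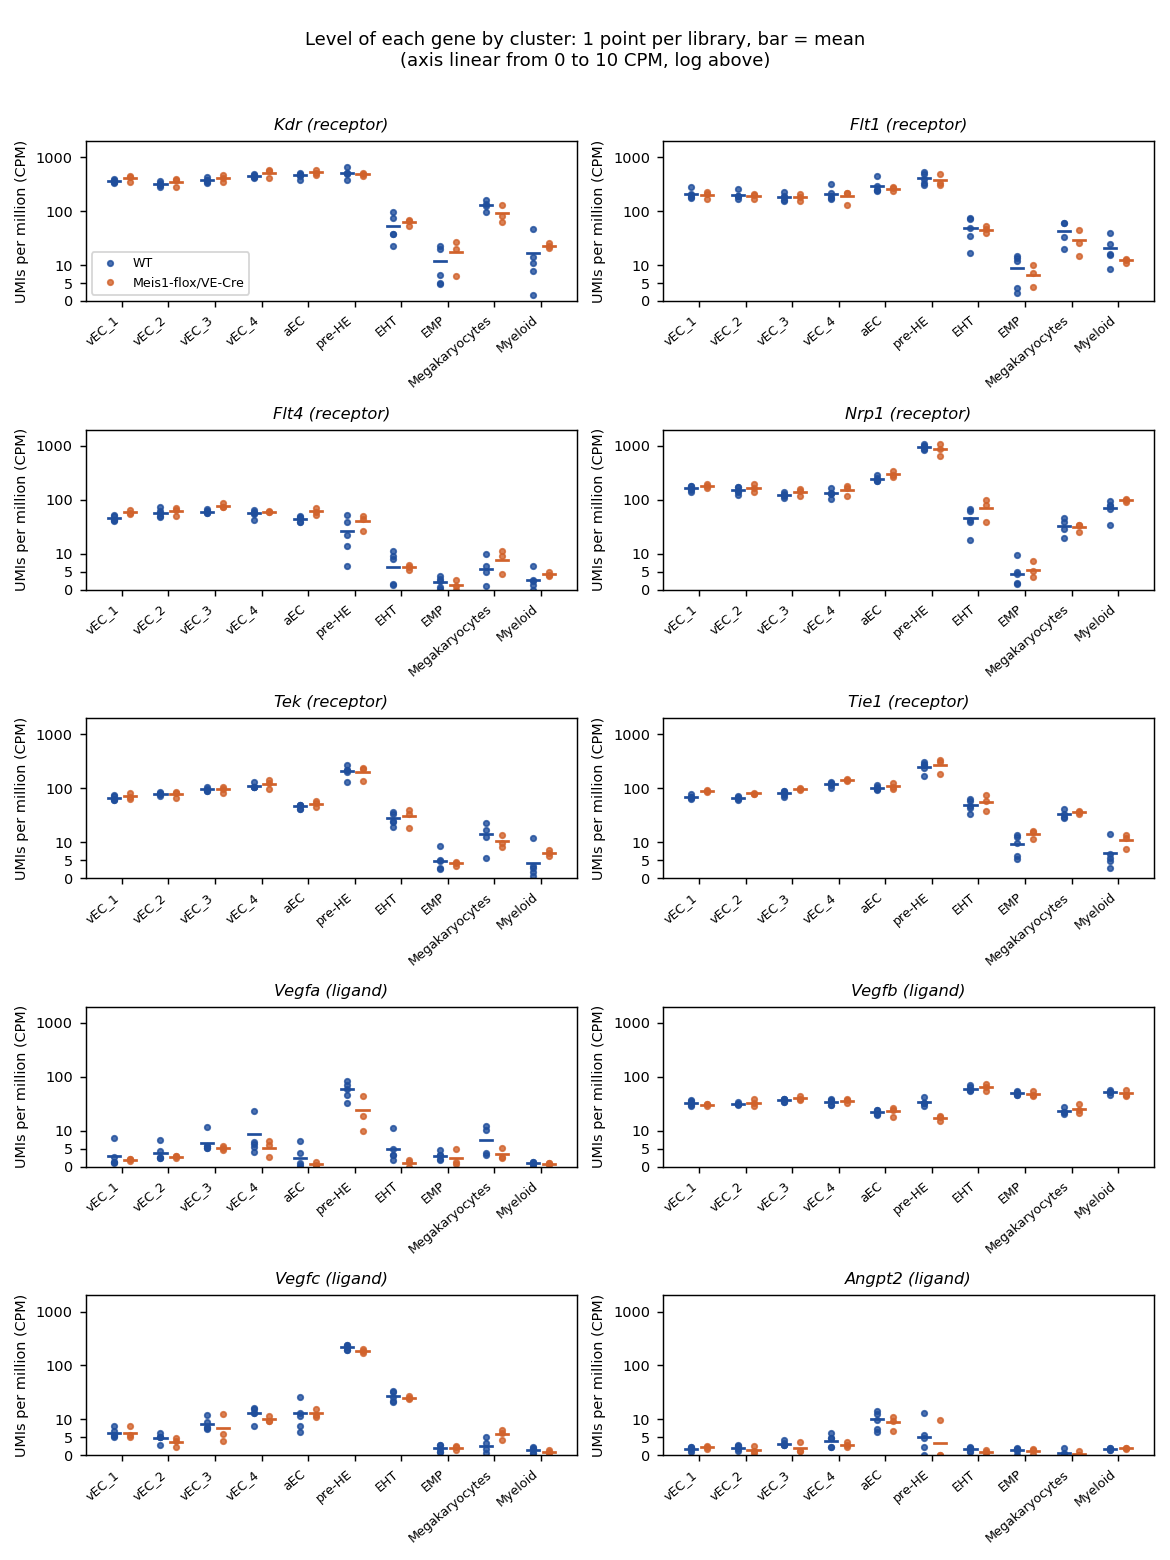
Level of each of the 10 genes in CPM (axis linear from 0 to 10, log above) in the 10 clusters, with a point per library, a bar at the mean, WT in blue and Meis1-flox/VE-Cre in orange. Nrp1 runs from 829 to 1067 CPM in pre-HE of WT and from 18.2 to 66.5 CPM in EHT, and Kdr overlaps between aEC and pre-HE. Vegfc stands far above its other levels in pre-HE. Vegfa in pre-HE of WT lies above its other WT levels, but in pre-HE of Meis1-flox/VE-Cre it runs from 9.90 to 44.2 CPM.

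Kdr stood at 516, 457, 376, 495 and 471 CPM in aEC of WT 1 to 5, a mean of 463 ± 53.7 (SD, n = 5). In pre-HE it stood at 520, 490, 382, 514 and 650 CPM, a mean of 511 ± 95.4 (SD, n = 5), and the libraries of both clusters overlapped. In EHT it was 22.2, 38.2, 37.6, 95.0 and 76.0 CPM. All 5 EHT values lay far below every aEC and pre-HE value. In vEC it ranged from 322 to 405 CPM with a median of 352 CPM, and the 4 vEC clusters had means of 318 to 446 CPM. The blood clusters had means of 11.8 CPM (EMP), 16.5 CPM (Myeloid) and 130 CPM (Megakaryocytes).

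Flt1 was read at 297, 252, 249, 459 and 234 CPM in aEC of WT 1 to 5, with WT 4 apart from the others. In pre-HE it was 393, 336, 311, 530 and 496 CPM, above aEC in each of the 5 libraries, although the ranges overlapped. The EHT values were 16.4, 34.4, 70.2, 75.9 and 48.9 CPM. The vEC values ranged from 168 to 265 CPM. The blood clusters had means of 43.6 CPM (Megakaryocytes), 20.9 CPM (Myeloid) and 9.31 CPM (EMP), beside 49.2 CPM in EHT. Flt1 and Kdr were thus both highest in the endothelial clusters but not confined to them. Kdr stood at the higher level of the 2 in aEC of all 5 WT libraries.

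Flt4, the VEGFC receptor of lymphatic and early venous endothelium, was the one receptor that peaked outside pre-HE. Its vEC_3 mean was 60.1 ± 4.39 CPM (SD, n = 5), with vEC_2 at 57.7 and vEC_4 at 55.8 CPM, and these neighbors overlapped. It stood at 47.9, 39.0, 39.3, 50.0 and 44.9 CPM in aEC of WT 1 to 5. The pre-HE values spread from 6.48 CPM (1 UMI, WT 3) to 53.0 CPM (67 UMIs, WT 4), with 22.1, 14.0 and 38.6 CPM in WT 1, 2 and 5 from 12, 3 and 6 UMIs. WT 4 alone of the 5 libraries was higher in pre-HE than in aEC.

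Nrp1 was the most abundant of the 10 mRNAs in pre-HE, at 1067, 980, 862, 829 and 1004 CPM in WT 1 to 5. The aEC values were 284, 227, 219, 253 and 231 CPM, the EHT values 42.4, 18.2, 38.4, 66.5 and 63.0 CPM. None of the 3 clusters overlapped. Of the 6 receptors Nrp1 also had the highest level in Myeloid cells, 71.1 ± 23.2 CPM (SD, n = 5), above its mean of 45.7 CPM in EHT.

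Tek and Tie1, the 2 Tie receptors, were read at 267, 215, 201, 216 and 129 CPM and at 282, 275, 305, 239 and 167 CPM in pre-HE of WT 1 to 5. In aEC, Tek stood at 48.2, 49.6, 48.5, 41.5 and 41.8 CPM and Tie1 at 105, 91.9, 98.7, 113 and 98.4 CPM. Both were above every aEC value in every pre-HE library, with WT 5 the lowest in pre-HE for both. In EHT, Tek ranged from 19.4 to 35.8 CPM and Tie1 from 33.2 to 63.3 CPM. Among the vEC clusters Tek climbed from 65.9 CPM in vEC_1 through 78.7 and 95.0 to 111 CPM in vEC_4, and Tie1 was likewise highest in vEC_4 (119 CPM) and lowest in vEC_2 (66.3 CPM).

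Vegfa was close to its detection limit in aEC, with 0, 0.587, 3.66, 7.11 and 0.898 CPM in WT 1 to 5, from 0, 2, 4, 48 and 2 UMIs. A count of 0 in the aEC sum of WT 1 allows a level of up to 0.945 CPM. In pre-HE it was 71.9, 84.0, 58.3, 45.9 and 32.2 CPM from 39, 18, 9, 58 and 5 UMIs. Every pre-HE value lay above every aEC value. In EHT it was 4.82, 1.88, 3.34, 11.3 and 3.26 CPM, and in vEC 4.10, 3.09, 4.08, 10.5 and 3.41 CPM. WT 4 was the highest library in aEC, EHT and vEC.

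Vegfc, best known as the growth factor of lymphatic vessels, stood at 236, 219, 240, 190 and 193 CPM in pre-HE of WT 1 to 5. In aEC it was 12.9, 11.4, 6.40, 25.5 and 8.09 CPM, in EHT 32.3, 33.8, 20.9, 26.2 and 22.3 CPM and in vEC 6.58 to 8.02 CPM. Pre-HE was thus the one cluster with a high level of this ligand, and its lowest library lay well above the highest library of any other cluster.

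Vegfb had a different order. Its highest mean was in EHT, from 54.5 to 69.5 CPM with a mean of 60.4 ± 6.54 (SD, n = 5), followed by Myeloid (52.1 CPM) and EMP (49.1 CPM). The pre-HE values were 33.2, 42.0, 32.4, 28.5 and 32.2 CPM and the aEC values 19.8, 20.8, 24.7, 24.6 and 20.7 CPM. Pre-HE was above aEC in each WT library. Angpt2 was low in every cluster and highest in aEC, at 14.2, 7.34, 6.40, 9.92 and 12.6 CPM in WT 1 to 5, where Vegfa was lower still. In pre-HE it rested on 9 UMIs in all of WT (0 to 3 per library), and a count of 0 in WT 5 allows up to 19.3 CPM there. In vEC it was 2.22 to 3.17 CPM, below every aEC value, and its mean was at most 4.08 CPM in the clusters other than aEC and pre-HE.

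Ordered by their WT means over the 10 clusters, pre-HE ranked first for 7 of the 10 genes. For Nrp1, Tek, Tie1, Vegfa and Vegfc it did not overlap with the next cluster, whereas for Kdr (next aEC) and Flt1 (next aEC) the neighbors overlapped. Flt4 ranked highest in vEC_3, Vegfb in EHT and Angpt2 in aEC, and each overlapped with its neighbor in the order. The shares of all genes that ranked first in pre-HE, with or without overlap, were not counted. These counts therefore do not set the 10 genes apart from other genes.

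The step from aEC to pre-HE was tested with edgeR's quasi-likelihood test on the sums, with the library as a block and Benjamini-Hochberg adjustment over all genes tested, and a gene is said to be called at an adjusted p under 0.1. Cells had been clustered on these same counts, and Nrp1 and Vegfc were in the arterial score by which the authors named clusters, so that these tests measure how well the libraries repeat a difference and are not independent evidence of it. Of the 9 genes that passed the filter on low counts (Angpt2 did not), 7 were called, 6 higher and 1 lower. Over all 8143 genes tested, 42.1% were called, 21.1% in each direction. The median log2 fold change of the 9 genes was 1.20, against 0.01 over all genes tested.

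Vegfa rose by 4.09 on the log2 scale (SE 0.38, adjusted p = 6.96e-12), Vegfc by 3.72 (SE 0.19, adjusted p = 1.65e-20), Tek by 2.14 (SE 0.14, adjusted p = 5.96e-17), Nrp1 by 1.85 (SE 0.09, adjusted p = 2.35e-21) and Tie1 by 1.20 (SE 0.12, adjusted p = 5.45e-11). Each was higher in 5 of 5 WT libraries. WT 4, with most of the aEC reads of Vegfa, set the size of that change, which was 6.07 without it. The change of Vegfc was 4.29 without WT 4. Flt1 rose by 0.35 (SE 0.10, adjusted p = 0.00610), and was 0.43 without WT 4. It was called in 9 of 13 alternatives and missed the threshold without WT 5 (0.22, adjusted p = 0.107), without the filter on low counts (adjusted p = 0.126), with sums of at least 20 cells (0.20, adjusted p = 0.261) and under Bonferroni adjustment. Flt4 fell by 0.51 (SE 0.21, adjusted p = 0.0585), which was called in 5 of 13 alternatives, and fell by 1.20 without WT 4 (adjusted p = 0.00225). Vegfb differed by 0.43 (SE 0.22, adjusted p = 0.128), and by 0.63 without WT 4 (adjusted p = 0.0946).

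Kdr had a log2 fold change of 0.02 (SE 0.09, adjusted p = 0.870). In plain CPM it was higher in pre-HE in 5 of 5 WT libraries and lower in 3 of 3 Meis1-flox/VE-Cre libraries. TMM scaling shifted the step by 0.11 on the log2 scale relative to plain CPM, which is larger than the fitted change of Kdr, and its direction is therefore not given. In the Meis1-flox/VE-Cre libraries taken alone, Nrp1 (1.47), Tek (1.85), Tie1 (1.21), Flt1 (0.48) and Vegfc (3.79) were called in the same direction, and Kdr (-0.20, adjusted p = 0.290) and Flt4 (-0.64, adjusted p = 0.181) were not called. Vegfb was not called either, and its difference there had the opposite sign to that of WT (-0.54, SE 0.48, adjusted p = 0.510). Vegfa and Angpt2 did not pass the filter in these libraries.

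**Figure D2:**
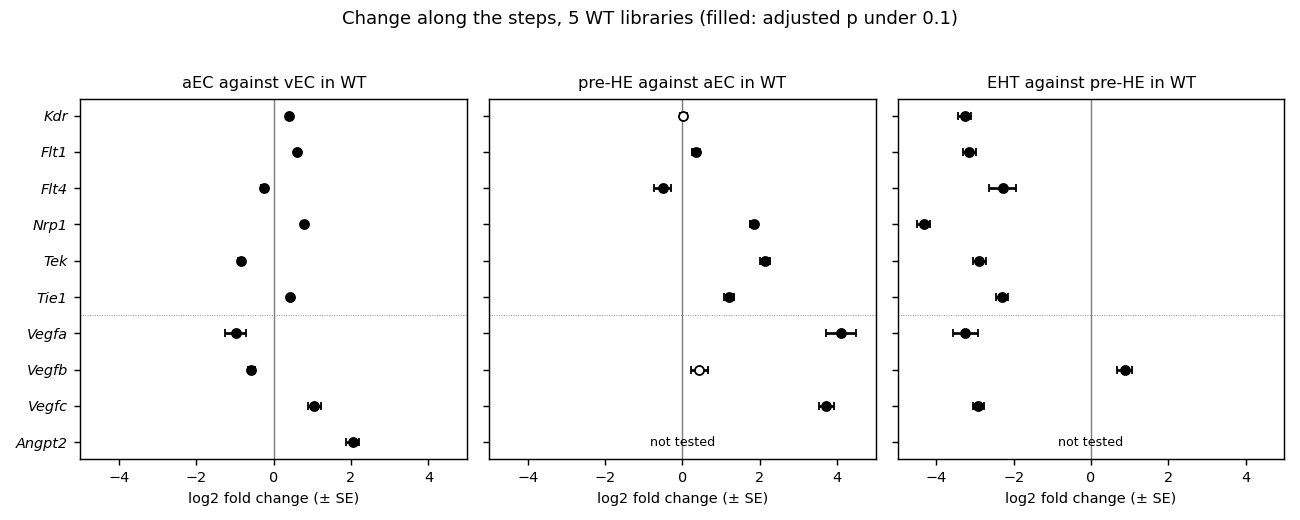
Fitted log2 fold change (point) with its standard error (bar) of each gene in WT, with aEC against vEC, pre-HE against aEC and EHT against pre-HE from left to right. Filled points passed an adjusted p under 0.1. In pre-HE against aEC, Kdr stands at 0.02 and Vegfa at 4.09, and in EHT against pre-HE Vegfb alone lies above 0.

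Markers of other cell types moved with this step. The 6 mesenchymal and perivascular markers summed to 213 CPM in pre-HE of WT (88.7 to 373 CPM) against 1.65 CPM in aEC and 76.4 CPM in EHT. Acta2, a smooth muscle actin, made up 202 CPM of it, Pdgfrb and Cspg4, which define pericytes, were at 0, and 4 of the 6 had a UMI. The 4 epithelial markers summed to 51.9 CPM in pre-HE, 0.791 CPM in aEC and 67.5 CPM in EHT, with Krt18 at 49.0 CPM and Epcam and Cdh1 at 0 in pre-HE. Of the myeloid markers Ptprc was at 0 in pre-HE. The cells that held these marker UMIs were not identified. The part of any other cell type in the levels of Vegfa and Vegfc was not tested.

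From pre-HE to EHT, 9 of the 9 genes tested were called, 8 lower and Vegfb higher. Over all 8467 genes tested 61.6% were called, 30.0% lower and 31.6% higher. The median log2 fold change of the 9 was -2.92, against 0.04 over all genes. Nrp1 had the largest fall, by 4.33 on the log2 scale (SE 0.16, adjusted p = 3.19e-21). Kdr fell by 3.27 (SE 0.17), Vegfa by 3.26 (SE 0.32), Flt1 by 3.15 (SE 0.18), Vegfc by 2.92 (SE 0.15), Tek by 2.89 (SE 0.17) and Tie1 by 2.31 (SE 0.16), with adjusted p-values between 1.07e-17 and 2.01e-10. Each was lower in 5 of 5 WT libraries. Flt4 fell by 2.28 (SE 0.35, adjusted p = 1.14e-06) and was lower in 4 of 5, and it did not pass the filter without WT 4. Vegfa fell by 4.08 without WT 4. Vegfb rose by 0.87 (SE 0.20, adjusted p = 0.000341) in 5 of 5. In the Meis1-flox/VE-Cre libraries the 7 genes that could be tested were called in the same directions.

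The aEC and vEC clusters differed in all 10 genes. In aEC against vEC, 10 of 10 genes were called where 59.7% of 11345 genes were (29.2% higher and 30.5% lower in aEC). The median over the 10 was 0.42, against -0.01 over all genes. Higher in aEC were Angpt2 by 2.04 (SE 0.16, adjusted p = 1.29e-10), Vegfc by 1.04 (SE 0.17, adjusted p = 1.21e-05), Nrp1 by 0.79 (SE 0.05), Flt1 by 0.60 (SE 0.05, and by 0.55 without WT 4), Tie1 by 0.43 (SE 0.05) and Kdr by 0.41 (SE 0.05). Lower in aEC were Vegfa, which fell by 0.98 (SE 0.27, adjusted p = 0.00361), Tek, which fell by 0.85 (SE 0.07, adjusted p = 4.81e-11), Vegfb, which fell by 0.58 (SE 0.09) and Flt4, which fell by 0.25 (SE 0.07, adjusted p = 0.00397). The pair of Tie receptors thus differed in opposite directions. WT 4 set the size for the VEGF ligands: without it Vegfa fell by 2.07 and the change of Vegfc was 0.59, both still called. The Flt4 difference missed the threshold after thinning (-0.14, adjusted p = 0.339) and in the Meis1-flox/VE-Cre libraries (-0.06, adjusted p = 0.681).

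Within the vEC compartment all 10 genes were called between the 4 clusters, where 72.5% of 11058 genes were. The span between the highest and the lowest cluster was 1.53 on the log2 scale for Vegfa, 1.40 for Vegfc, 0.88 for Angpt2, 0.78 for Tie1, 0.67 for Tek and between 0.19 and 0.49 for the other 5. Vegfa means ran from 2.86 CPM in vEC_1 to 9.12 CPM in vEC_4, and Vegfc means from 4.87 CPM in vEC_2 to 13.2 CPM in vEC_4. For Vegfa, WT 4 stood above the other libraries, at 7.88 CPM in vEC_1 and 22.7 CPM in vEC_4, which raised both means. Without WT 4 the Vegfa means were 1.60 CPM in vEC_1 and 5.72 CPM in vEC_4, and the span was 1.71, still called (adjusted p = 8.85e-07). The smallest span, that of Vegfb (0.19, adjusted p = 0.0807), was called in 6 of 11 alternatives.

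Receptor and ligand totals describe the balance of the set (plot of totals by cluster). The 6 receptors summed to 1196 ± 155 CPM in aEC, 2359 ± 187 CPM in pre-HE, 231 ± 86.7 CPM in EHT and 920 ± 72.2 CPM in vEC (SD, n = 5 WT libraries). The 4 ligands summed to 47.5 ± 11.2 CPM, 313 ± 46.6 CPM, 94.1 ± 2.51 CPM and 48.5 ± 3.82 CPM in the same clusters. The log2 ratio of receptors to ligands was therefore 4.67 ± 0.17 in aEC, 4.24 ± 0.10 in vEC, 2.92 ± 0.29 in pre-HE and 1.21 ± 0.53 in EHT, and the 5 libraries of pre-HE (2.59 to 3.27) overlapped with neither aEC (4.40 to 4.80) nor EHT (0.62 to 1.84). In EMP the ratio was -0.59 ± 0.84, with ligand, mostly Vegfb, at about the receptor level. These totals are a description without a test. The ligands of the total do not include Angpt1, which is described with the other genes of the pathway.

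**Figure D3:**
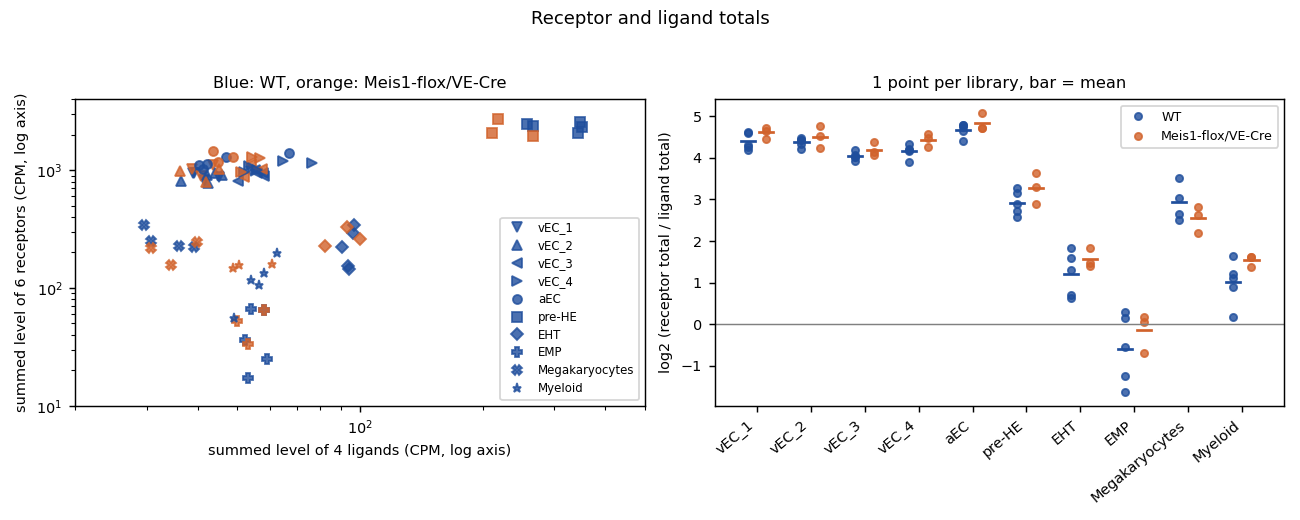
Left, summed level of the 6 receptors (y axis) against that of the 4 ligands (x axis; both CPM on log axes), with a point per library and cluster. Right, the log2 ratio of the totals by cluster with a bar at the mean; WT is blue and Meis1-flox/VE-Cre orange. Pre-HE lies highest on both axes, at means of 2359 and 313 CPM in WT, and EHT lies lower in receptors at 231 CPM, with a log2 ratio of 1.21 against 4.67 in aEC.

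Ratios within a library need no scaling between libraries, and 4 pairs were compared over 3 steps by exact two-sided sign-flip tests over all 8 libraries, with Benjamini-Hochberg adjustment over the 12. The smallest p that 8 libraries allow is 0.00781. Flt1, the decoy-like receptor, gained on Kdr in pre-HE: the log2 ratio was -0.80 ± 0.32 in aEC and -0.34 ± 0.23 in pre-HE (SD, n = 8), a difference of 0.46 that ran in the same direction in 8 of 8 libraries (exact p = 0.00781, adjusted p = 0.0117). Tek gained on Tie1, with a Tie1 to Tek ratio of 1.12 ± 0.23 in aEC and 0.35 ± 0.17 in pre-HE, a difference of -0.77 (8 of 8 libraries, same exact p). The ratio was -0.01 ± 0.20 in vEC, 1.14 below aEC (8 of 8, same exact p).

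The Vegfa to Kdr ratio was 5.22 higher in pre-HE than in aEC on the log2 scale and 2.31 lower in aEC than in vEC, each in 8 of 8 libraries (exact p = 0.00781, adjusted p = 0.0117). It rests on very few Vegfa UMIs in aEC, with 0.5 UMI added to each count. The Angpt2 to Tek ratio was 2.85 higher in aEC than in vEC and 2.88 lower in pre-HE than in aEC (same exact p, 8 of 8 libraries each). In pre-HE it rests on 9 Angpt2 UMIs in WT and 2 in Meis1-flox/VE-Cre, with 0 in WT 5 and in Meis1-flox/VE-Cre 2 and 3. Its size there depends on the 0.5 UMI added, and Tek itself rose in this step. The Flt1 to Kdr ratio was 0.14 higher in aEC than in vEC, also in 8 of 8. From pre-HE to EHT none of the 4 ratios passed the threshold of 0.05. The Tie1 to Tek ratio was 0.49 higher in EHT in 7 of 8 libraries (exact p = 0.0391, adjusted p = 0.0521), Angpt2 to Tek 1.13 higher in 6 of 8 (adjusted p = 0.0750), Flt1 to Kdr 0.09 higher in 3 of 8 (adjusted p = 0.727) and Vegfa to Kdr 0.48 lower in 5 of 8 (difference -0.48, adjusted p = 0.239). With the 5 WT libraries alone these tests cannot pass the threshold.

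The share of cells with a UMI was taken after each cell was thinned to 5000 UMIs. The Myeloid cluster was chosen as the background because it should lack endothelial receptors, which held for neither Nrp1 nor Flt1. Without thinning, Flt1 was detected in 32.9% of Myeloid and 44.3% of EHT cells of WT. Shares are means over the 5 WT libraries, and thinning left out 2 aEC, 1 EHT, 1 Myeloid and 0 pre-HE cells. Nrp1 was detected in 99.3% of pre-HE cells, against 65.0% in aEC and 16.4% in EHT, below the 27.2% of Myeloid cells, which express it. Kdr was detected in 86.2% of aEC, 83.6% of pre-HE and 20.6% of EHT cells (Myeloid 4.04%). Tek rose from 18.6% of aEC to 63.1% of pre-HE cells and stood at 13.3% in EHT (Myeloid 2.53%). Tie1 was at 38.4%, 68.1% and 23.1% in the same 3 clusters (Myeloid 3.16%).

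Among the ligands, Vegfc was detected in 65.9% of pre-HE cells (55.6 to 81.2% over the libraries), 6.83% of aEC and 12.6% of EHT cells, against 1.04% of Myeloid cells. Vegfa was detected in 25.0% of pre-HE cells (12.5 to 36.4%), 1.22% of aEC cells and 0.651% of EHT cells, the last near the 0.368% of Myeloid cells. Vegfb was detected least often in aEC and most often in Myeloid cells among these clusters, with 11.2% of aEC, 15.2% of pre-HE, 21.9% of EHT and 24.6% of Myeloid cells. Angpt2 was detected in 3.49% of aEC cells and in 3 of 171 pre-HE cells.

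Receptor and ligand were read in the same cells (plot of shares by cluster). In pre-HE of WT, 54.1% of cells held UMIs of both Vegfc and Kdr, 21.6% of both Vegfa and Kdr, 47.0% of both Tek and Tie1 and 82.9% of both Nrp1 and Kdr. In aEC the same 4 shares were 5.63%, 1.22%, 6.86% and 58.0%. Vegfc with its receptor Flt4 was seen in 9.48% of pre-HE and 1.40% of aEC cells. Taken singly, Kdr was detected in 83.6%, Nrp1 in 99.3%, Vegfc in 65.9% and Vegfa in 25.0% of pre-HE cells of WT. Tek was at 63.1% and Tie1 at 68.1% there. A joint share rises with the single-gene shares, and the share that independent detection would give was not computed. Whether these genes were detected together more often than that was not tested. Without thinning the EHT shares were higher, with Kdr in 44.2% and Vegfc in 50.7% of EHT cells, at a median of 25592 UMIs per cell against 12884 in pre-HE, 18343 in aEC and 39173 in Myeloid cells. Unthinned Myeloid shares were 14.9% for Kdr and 3.88% for Vegfc. In Meis1-flox/VE-Cre, where thinning left out 13 of 77 pre-HE cells, 53.5% of pre-HE cells held Vegfc, 54.4% Tek and 11.3% Vegfa.

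**Figure D4:**
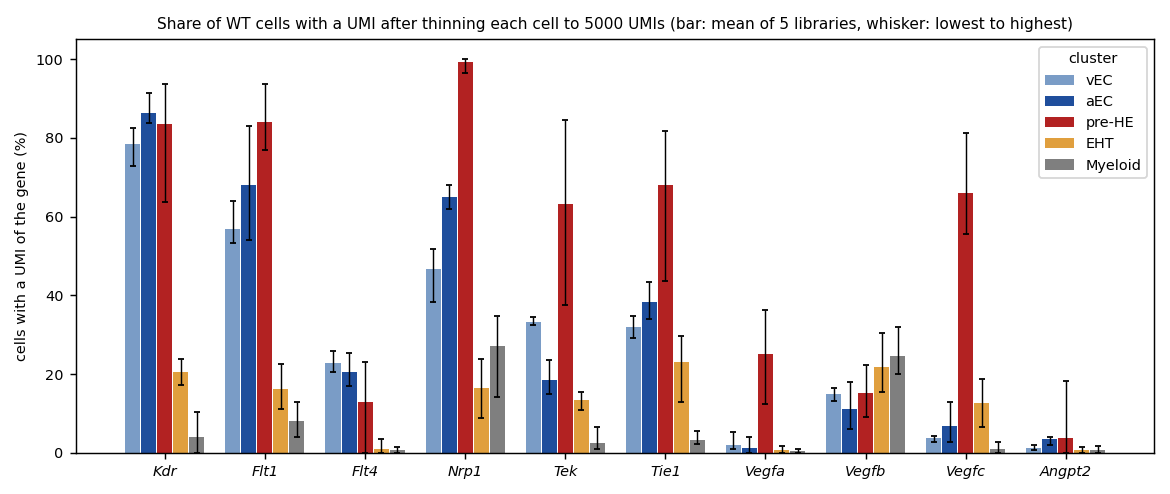
Share of cells with at least 1 UMI of each gene after thinning to 5000 UMIs (percent; bars are means of the 5 WT libraries, whiskers run from the lowest to the highest) in vEC, aEC, pre-HE, EHT and Myeloid cells. Nrp1 reaches 99.3% in pre-HE, Vegfc 65.9% in pre-HE against 6.83% in aEC, and Vegfb is highest in Myeloid cells at 24.6%.

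Other genes of the pathway were read from 5 lists. Among them, Dll4 and Epas1 were in the authors' arterial score and Nrp2 in their venous score. Differences of these genes between endothelial clusters are therefore not independent of the cluster names. Of 10 other ligands, receptors and partners, 5 could be tested between pre-HE and aEC, with 3 higher in pre-HE and 1 lower (median 0.81, against 0.01 over all genes). Ptprb, the phosphatase that restrains TEK and VE-cadherin, rose with Tek, by 2.71 on the log2 scale (343 against 47.5 CPM, adjusted p = 2.83e-21). Cdh5 (VE-cadherin) rose by 1.51 and Pecam1 (CD31, the sort marker) by 0.81, and Plxnd1, a semaphorin receptor, had a change of 0.16 that was not called (adjusted p = 0.256). Nrp2, the co-receptor of VEGFC in veins and lymphatics, fell by 3.21 (13.3 against 79.8 CPM, adjusted p = 1.75e-10), the opposite of Nrp1, with 0 to 57.9 CPM over the WT libraries in pre-HE. Figf, Pgf, Angpt1, Angpt4 and Svep1 did not pass the filter.

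The counts of the other lists stand beside the 42.1% of all genes that were called in this step, 21.1% in each direction. Of the 18 signal transduction genes tested, 6 were higher and 4 lower (median -0.10), Gab1, an adaptor below KDR, with the largest fall, by 1.84 (adjusted p = 1.78e-07). Of 12 genes that VEGF is known to induce, 6 were higher and 4 lower (median 0.61). Apln, a tip cell peptide, fell by 4.92 (0.633 against 50.9 CPM, adjusted p = 1.11e-13). Of 8 hypoxia and FOXO regulators, 1 was higher and 2 lower. Epas1 (HIF2A) rose by 1.86 (200 against 46.8 CPM, adjusted p = 1.03e-13). Of 12 transcription factors that regulate endothelial receptor genes, 8 were higher and 3 lower (median 0.49), Gata2 among the former, by 2.34 (74.1 against 12.1 CPM, adjusted p = 3.19e-12).

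In the step to EHT, 6 partners could be tested. Of these, 4 were lower in EHT, with log2 fold changes of -4.38 for Ptprb, -2.98 for Cdh5, -2.82 for Pecam1 and -2.27 for Plxnd1, and 2 rose. Angpt1, the activating ligand of TEK, rose by 4.51 (adjusted p = 1.00e-13), from 9.33 CPM in pre-HE (0 to 25.9 CPM) to 113 ± 12.3 CPM in EHT (99.4 to 132 CPM, n = 5), where Tek itself had fallen. Angpt1 stood at 60.2 CPM in EMP, 36.2 CPM in Megakaryocytes, 0.181 CPM in aEC and 1.23 CPM in vEC, so its highest mean was in EHT. Nrp2 was the other that rose, by 1.28 (adjusted p = 0.0169). Over all genes 61.6% were called in this step, 31.6% higher and 30.0% lower. Of 10 VEGF-induced genes 8 fell and 1 rose (median -2.10, against 0.04 over all genes), with Igfbp3 lower by 5.72 (difference -5.72) and Cxcr4 by 5.63 (difference -5.63). Of 21 signal transduction genes 4 rose and 8 fell. Dok2, a docking protein bound by TEK, rose by 3.23 and Prkca by 2.74. Epas1 had the largest fall among the regulators, by 5.44, where 5 of 8 fell and 1 rose. Of the 12 transcription factors 4 rose and 7 fell.

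Between aEC and vEC, where 29.2% of all genes were higher and 30.5% lower in aEC, 12 of the 14 VEGF-induced genes tested were higher in aEC and 1 lower (median 1.07, against -0.01 over all genes). Cxcr4 was higher by 5.33, Esm1, an endothelial tip cell gene, by 4.26 and Dll4, the arterial Notch ligand, by 2.68. Adamts9 was lower in aEC (difference -0.86), as was Nrp2 (difference -1.30). Dll4 and Nrp2 were in the scores by which the authors named these clusters, so their directions are not independent evidence. Of 22 signal transduction genes 10 were higher and 4 lower, Nfatc1 among the latter (difference -0.53). Of 8 hypoxia and FOXO regulators 3 were higher and 1 lower, and of 13 transcription factors 6 were higher and 4 lower. Plxnd1 (0.24) and Pecam1 (0.70) were higher, and Ptprb (-0.02) and Cdh5 (0.05) were not called. Between the 4 vEC clusters, 6 of 6 partners, 15 of 22 signal transduction genes, 12 of 13 VEGF-induced genes, 7 of 8 hypoxia and FOXO regulators and 12 of 13 transcription factors were called, beside 72.5% of all genes.

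The Meis1-flox/VE-Cre libraries were then compared with WT within each cluster, which asks whether the receptor and ligand mRNAs depend on the genotype. No member was called in any of the 4 clusters by edgeR (plot of genotype differences). In aEC, 0 of 9 genes tested were called, where 0% of 9540 genes were, and 2 members and 1000 genes had an unadjusted p under 0.05. DESeq2 called 0 members and 11 genes. In pre-HE, 0 of 7 were called (0.489% of 3682 genes), with 1 member and 263 genes at an unadjusted p under 0.05 and 0 members and 9 genes by DESeq2. In EHT, 0 of 8 were called (0.127% of 8670 genes, 0.0577% higher and 0.0692% lower), with 0 members and 823 genes at an unadjusted p under 0.05 and 0 members and 31 genes by DESeq2. In vEC, 0 of 10 were called (0.0164% of 12205 genes), with 2 members and 1996 genes at an unadjusted p under 0.05. DESeq2 called 1 member there, Tie1 (0.32, adjusted p = 0.0432), and 264 genes (2.16%).

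**Figure D5:**
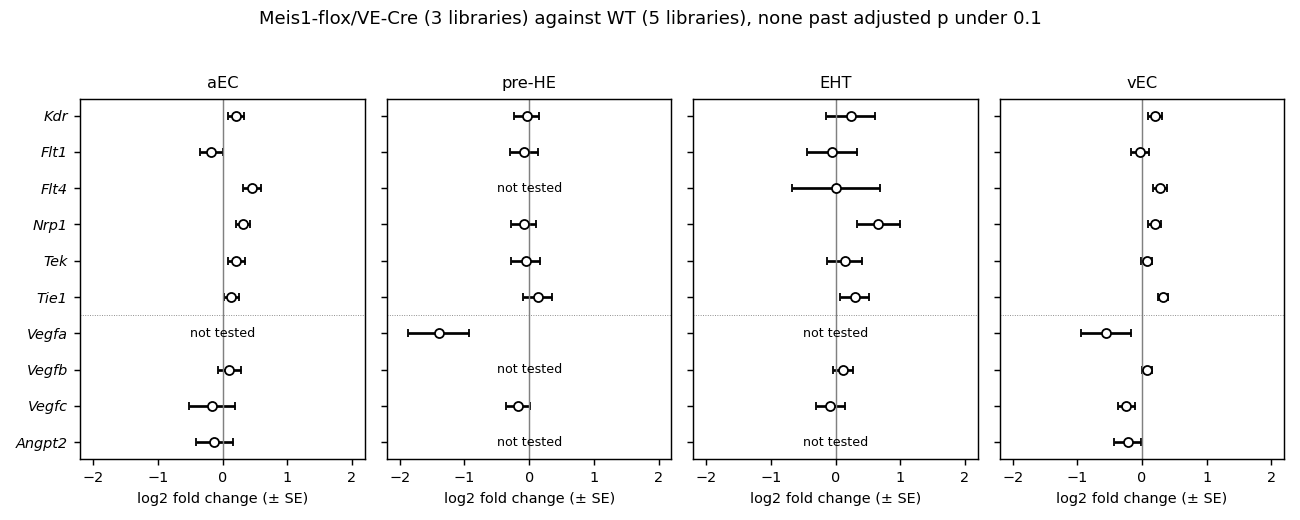
Fitted log2 fold change of Meis1-flox/VE-Cre against WT (point, with its standard error) for each gene tested in aEC, pre-HE, EHT and vEC. All points are open because none passed an adjusted p under 0.1; Vegfa in pre-HE is the lowest at -1.39.

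Tie1 in vEC stood at 94.6, 94.6 and 93.9 CPM in Meis1-flox/VE-Cre 1 to 3 and at 80.6, 69.9, 73.4, 83.7 and 78.6 CPM in WT 1 to 5. The groups did not overlap, and the same held in each of the 4 vEC clusters, which come from the same 8 libraries and are not repeats. The share of all genes whose groups also do not overlap was not counted, in vEC or in the other clusters. The log2 difference was 0.33 (SE 0.08, adjusted p = 0.193). Markers of blood cells were also higher on average in vEC of Meis1-flox/VE-Cre. The 5 granulocyte markers summed to 0.0558 to 0.577 CPM in WT, with Camp and Ngp at 0, and to 2.23 to 4.08 CPM in Meis1-flox/VE-Cre, with Ltf at 0. The 4 myeloid markers, all with a UMI in both groups, summed to 0.717 to 4.39 CPM against 5.26 to 15.9 CPM, and the 5 erythroid markers, also all detected, to 19.4 to 149 CPM against 80.2 to 191 CPM, with overlap. Their part in the levels of Tie1 and Flt4 was not tested. The Tie1 difference was 0.25 against WT 5 alone, the one WT library as shallow as those of Meis1-flox/VE-Cre, and 0.28 with median UMIs per cell as a covariate, both with an adjusted p of 1.00 after rounding. Flt4 in vEC was 71.8, 62.2 and 60.0 CPM against 48.2 to 63.4 CPM in WT, a difference of 0.28 (SE 0.10, adjusted p = 0.248), which was 0.02 against WT 5 alone. WT 5 decided these calls: without it Tie1 (0.34, adjusted p = 0.0286) and Flt4 (0.35, adjusted p = 0.0306) passed the threshold, and 1647 genes did (13.5%) in place of 2. The replicate numbers are not known to pair libraries. With the number as a block, which leaves out WT 4 and WT 5, 4 members were called in vEC, beside 19.5% of 12050 genes. They were Tie1 (0.39, adjusted p = 0.00558), Flt4 (0.38, adjusted p = 0.00628), Nrp1 (0.26, adjusted p = 0.0374) and Kdr (0.25, adjusted p = 0.0713). The same 6 libraries without the block gave 2 called members and 9.97% of genes. The 3 WT libraries of that fit are all of the deeper kind, so that depth and genotype cannot be told apart in it.

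Flt4 in aEC was 70.6, 59.4 and 51.3 CPM in Meis1-flox/VE-Cre and 39.0 to 50.0 CPM in WT, without overlap, a difference of 0.45 (SE 0.14, adjusted p = 0.323). Nrp1 in aEC was 346, 287 and 261 CPM against 219 to 284 CPM, a difference of 0.31 (SE 0.11, adjusted p = 0.376). In pre-HE, Vegfa was 9.90, 19.1 and 44.2 CPM from 2, 4 and 5 UMIs, against 32.2 to 84.0 CPM in WT, a difference of -1.39 (SE 0.47, adjusted p = 0.399). It was -0.90 with depth as a covariate and did not pass the filter against WT 5 alone. Vegfb in pre-HE was 14.8, 19.1 and 17.7 CPM from 3, 4 and 2 UMIs, below the 28.5 to 42.0 CPM of WT without overlap, but did not pass the filter. Beside these values, Acta2 stood at 810 CPM in pre-HE of Meis1-flox/VE-Cre against 202 CPM in WT, and its part was not tested. Vegfc in pre-HE was 183, 172 and 203 CPM, a difference of -0.17 on the log2 scale (SE 0.19), and Kdr, Flt1, Nrp1, Tek and Tie1 there differed by -0.08 to 0.13. In EHT the largest difference among the 8 genes tested was that of Nrp1, 96.8, 79.2 and 38.8 CPM against 18.2 to 66.5 CPM (0.66, SE 0.33, adjusted p = 0.560). Vegfa and Angpt2 did not pass the filter there, with means of 1.11 CPM (3 UMIs) and 0.785 CPM (2 UMIs) in Meis1-flox/VE-Cre against 4.93 and 1.62 CPM in WT.

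The other members were not called in any cluster. In aEC the differences were 0.21 for Kdr, 0.21 for Tek, 0.14 for Tie1, 0.10 for Vegfb, -0.13 for Angpt2, -0.17 for Vegfc and -0.18 for Flt1 (0.03 without WT 4), and Vegfa did not pass the filter. In vEC they were 0.20 for Kdr, 0.19 for Nrp1, 0.08 for Vegfb, 0.07 for Tek, -0.03 for Flt1, -0.22 for Angpt2, -0.24 for Vegfc and -0.56 for Vegfa. In EHT they were 0.29 for Tie1, 0.23 for Kdr, 0.14 for Tek, 0.12 for Vegfb, 0.01 for Flt4, -0.05 for Flt1 and -0.08 for Vegfc. In pre-HE, Flt4 and Angpt2 did not pass the filter.

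Whether the steps themselves differed between genotypes was tested by an interaction term over all 8 libraries. No member was called for pre-HE against aEC (0 of 10, where 0.0527% of 9489 genes were called), EHT against pre-HE (0 of 9, 0.0374% of 8025) or aEC against vEC (0 of 10, 0% of 11886). The rise of Nrp1 into pre-HE was 0.41 smaller in Meis1-flox/VE-Cre (difference -0.41, SE 0.15, adjusted p = 0.884) and its fall into EHT 0.75 smaller (SE 0.26, adjusted p = 1.00 after rounding). Among the 5 pathway lists 1 gene was called between genotypes in any of the 4 clusters, Lmo2, a hematopoietic and endothelial cofactor, in EHT (difference -0.71, adjusted p = 0.0550).

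The genes whose pattern was most like each member were ranked by Pearson's r of log2 CPM over the 10 WT cluster means, among 9761 genes. The 10 means share libraries and several are related clusters, so these values are a description. Tek was most like Mocs2 (r = 0.991), Fbn2 and Fam171a1, Tie1 most like Col18a1 (0.993), Golim4 and Gramd3, Kdr most like Exoc3l4 (0.995), Igdcc3 and Arpin and Flt1 most like Npdc1 (0.996), Rab40c and Dach1. Flt4 was most like Mex3b (0.996), Edil3 and Amotl1, Nrp1 most like Lrrc58 (0.979), Cyr61 and Ccdc88a, and Vegfc most like Fas (0.981), Marveld1 and Smad6. Vegfa was most like Tbc1d24 (0.981), Kmt2a and Bag6, Vegfb most like Slc25a13 (0.974), Jade1 and Snhg12, and Angpt2 most like Jam2, with the lowest r of 0.923. Among the members themselves r was 0.969 between Kdr and Flt1, 0.964 between Tek and Tie1 and 0.826 between Vegfa and Vegfc, and it was negative between Kdr and Vegfb (-0.69).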

How the data were processed

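RNA and surface tags were read by CITE-seq (10x Genomics 3′ v3 kit) in CD31+ AGM cells of 3 Meis1-flox/VE-Cre and 5 WT pools. The authors deposited raw UMI counts per gene and cell, with no normalization, made with Cell Ranger 3.0.2 on mm10 per the submitters' processing notes. They had kept cells with more than 2000 genes and under 10% mitochondrial reads, integrated the libraries, clustered them and named the clusters by hand. A second deposited table gave each cell's library and cluster. A doublet caller was not run here.

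Raw counts were summed per library and cluster for sums of at least 10 cells, which left out the Megakaryocytes of WT 3. The quasi-likelihood test of edgeR 4.0.16 (R 4.3.3) was applied after filterByExpr and TMM scaling (two-sided, Benjamini-Hochberg over all genes tested, threshold 0.1), steps with the library as a block and genotypes, 5 against 3 libraries, without. A filterByExpr failure is written as not tested. The tests were checked on simulated counts. Ratios used 0.5 UMI as a pseudocount and exact sign flips with a threshold of 0.05. Shares used cells thinned at random to 5000 UMIs. A count of 0 was taken to allow 3 UMIs, which covers counting error only. P-values measure the spread between pools of embryos. Sums, ratios and shares were computed in Python 3.11.15 with scipy 1.17.1, pandas 2.3.3 and numpy 2.4.6.

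All 10 genes are named in each comparison between clusters or genotypes, except those given by a range. Of the other pathway genes, the text names the list of partners and at most the 3 largest rises and 3 largest falls among called genes with a mean of at least 10 CPM in either cluster. Lmo2 was named after its values were seen, as were the Angpt1 levels. The rule for the 10 genes reads no values, but the genes, lists, tests and markers were all proposed with earlier results of these data known.

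Alternatives were RLE normalization, DESeq2 1.42.0, no filter, an adjusted p under 0.05, Bonferroni adjustment, sums of at least 20 cells, thinned cells, each library left out in turn, the Meis1-flox/VE-Cre libraries in place of WT and, for genotypes, the replicate number as a block, WT 5 as the only WT library and depth as a covariate. The same 3 libraries of each genotype without the block were an alternative chosen after seeing the data. The replicate numbers come from the sample titles. Deviations of libraries 1, 2 and 3 correlated between the 2 genotypes at 0.12, 0.51 and 0.37 in vEC, where the blocked values are given in the text. The correlations were 0.038, 0.36 and 0.22 in aEC, -0.018, 0.14 and 0.14 in EHT and 0.0091, 0.010 and 0.021 in pre-HE. Libraries of different numbers were not compared, so these values do not show that the numbers pair libraries. No column of values belonged to no sample.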

Additional observations from a re-analysis of the deposited data

Results flagged for a closer look

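Of 100 sets of 5 or 4 WT libraries (10 genes in 10 clusters), 9 held a library whose gap to its nearest neighbor exceeded Dixon's 95% critical value (0.71 for 5 libraries), where chance gives about 1 in 20, and 6 of the 9 were in WT 4. Flt1 in WT 4 stood at 459 CPM in aEC (the others 234 to 297 CPM), at 282 CPM in vEC_1 (176 to 206 CPM) and at 260 CPM in vEC_2 (169 to 193 CPM). Vegfa in WT 4 stood at 7.88 CPM in vEC_1 (1.12 to 2.68 CPM), 11.8 CPM in vEC_3 (5.11 to 5.67 CPM) and 22.7 CPM in vEC_4 (4.03 to 6.98 CPM). In Myeloid cells, WT 5 stood apart for Kdr (47.5 CPM against 1.67 to 14.0 CPM) and for Tek (12.002 CPM against 0.558 to 3.45 CPM). Tek in vEC_4 of WT 1 was 128 CPM, with the others at 106 to 108 CPM. The changes of Vegfa and Flt1 from aEC to pre-HE and between aEC and vEC, and the Vegfa span between vEC clusters, are given without WT 4 in the text.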

How the results depend on the processing

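Of 1497 alternative fits of a member's log2 fold change, 1456 kept the direction of any call and the side of the threshold, 19 passed it where the reported fit did not and 22 missed it where the reported fit passed. Of the 461 for steps and vEC clusters, 438 were unchanged in this sense, and of the 22 losses those outside Bonferroni adjustment lay in Flt1, Flt4 and Vegfb. In 114 more, a difference called in neither fit had the opposite sign. All 403 for genotype differences of steps were unchanged. No called change reversed.

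The number of members called between genotypes, 0 as reported, was 2 in aEC, 1 in pre-HE, 2 in EHT and 4 in vEC with the replicate block, and 1, 1, 2 and 2 with libraries 1 to 3 unblocked. It was 1 in vEC by DESeq2 and 0 to 2 in vEC when each library was left out. Blocked values outside vEC were 0.57 for Flt4 (adjusted p = 0.0117) and 0.32 for Nrp1 in aEC, -1.73 for Vegfa in pre-HE (adjusted p = 0.0274) and 1.08 for Kdr and 1.17 for Nrp1 in EHT. The numbers are not shown to pair libraries in any cluster, vEC included.

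Genes called ranged from 1088 (Bonferroni) to 4229 (no filter) around 3432 for pre-HE against aEC, from 2109 (thinned) to 6346 around 5217 for EHT against pre-HE, from 2515 to 7143 around 6771 for aEC against vEC and from 4560 to 8536 around 8013 between vEC clusters. Between genotypes they ranged from 0 to 731 in aEC, 3 to 137 in pre-HE, 0 to 450 in EHT and 0 to 2351 in vEC, the highest with the block, and from 1 to 8, 0 to 12 and 0 to 24 for the differences of steps.

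With 5 WT libraries no ratio can pass (adjusted p = 0.0833). The values were 0.36 and 0.19 for Flt1 to Kdr, -0.83 and 1.25 for Tie1 to Tek, -2.91 and 2.82 for Angpt2 to Tek and 5.32 and -2.15 for Vegfa to Kdr in pre-HE against aEC and aEC against vEC. Thinned, Flt1 to Kdr in aEC against vEC was 0.090 and no longer passed, and Vegfa to Kdr in EHT against pre-HE was -0.98 and passed. Leaving out libraries moved Tie1 to Tek in EHT against pre-HE between 0.38 and 0.63 and Angpt2 to Tek between 0.92 and 1.39. Without Nrp1 the log2 ratio of totals was 4.34 in aEC, 2.18 in pre-HE and 4.00 in vEC.

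Unthinned shares in aEC, pre-HE, EHT and Myeloid cells were 98.7, 96.8, 44.2 and 14.9% for Kdr, 49.9, 83.6, 47.9 and 9.14% for Tek, 4.46, 43.0, 11.03 and 2.95% for Vegfa and 16.9, 84.6, 50.7 and 3.88% for Vegfc. Thinned to 3000 UMIs, Kdr was at 70.3% in aEC and 8.77% in EHT, Tek at 11.1% and 7.46%, and Vegfc at 43.6% in pre-HE.

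Depth limits Vegfa in aEC and in pre-HE of Meis1-flox/VE-Cre, Flt4 and Vegfb in pre-HE and Angpt2 in pre-HE and EHT, where several libraries hold 12 UMIs or fewer. The cause of the values that moved was not tested.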
